A study of Mus musculus with 10 samples.

Results

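The transcripts of 8 cell junction genes in mouse skin were followed across the libraries of an imiquimod experiment. They were chosen by gene name, with earlier results of these data known. Counts of members beside the shares of all genes are therefore a description. The set comprised 4 connexin genes (Gjb2, Gjb5, Gjb6 and Gja1), 2 claudin genes (Cldn1 and Cldn4), the occludin gene Ocln and the scaffold gene Tjp1. All 8 members were among the 9779 genes present in both deposited mouse tables, and 7 of them were among the 5245 genes that could be tested. Ocln had too few reads for the test.

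The sample labels of all 10 libraries name ear skin, and the C57BL/6 mice were 6 to 8 weeks old. The benzamil group (n = 4) had imiquimod applied to the skin together with benzamil, a derivative of amiloride and a blocker of epithelial sodium channels. The DMSO group (n = 4) received imiquimod with DMSO, the solvent, and the remaining group was untreated (n = 2). Imiquimod is a Toll-like receptor agonist that gives a psoriasis-like inflammation in mouse skin, and treatment lasted 6 days. The untreated group lacked both imiquimod and DMSO, so the parts of these agents in DMSO over untreated cannot be told apart. The design text names back skin for the untreated control whereas the sample labels name ear skin, so body site and treatment cannot be told apart with certainty in comparisons with untreated skin. No label says that replicates were separate animals, and the p-values therefore measure the spread between these libraries, which may be technical.

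Connexins are the subunits of gap junctions. A ring of connexins in 1 cell docks to a ring in its neighbour, and the channel passes ions and small molecules between the cells. In the epidermis, connexin 43 (Gja1) is the widespread form, whereas connexin 26 (Gjb2) and connexin 30 (Gjb6) are known for low levels in resting interfollicular epidermis and higher levels in wounded or hyperproliferative epidermis. Tight junctions close the space between cells of the granular layer. Claudins form their strands, occludin lies within the strands, and Tjp1 encodes ZO-1, which ties the strands to actin.

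Libraries were shallow. They held 138440 to 375455 reads in benzamil, 259262 to 935714 in DMSO, and 74614 and 71144 in untreated skin, counted over the joined genes. Levels are given as CPM, reads scaled to a fixed library total, and 1 read was worth between 1.07 CPM in the deepest DMSO library and 14.1 CPM in the shallower untreated library. Ribosomal RNA took 31.0 to 45.7% of reads in benzamil, 22.1 to 28.8% in DMSO, and 34.2 and 38.6% in untreated libraries. The CPM total holds all joined reads, and log2 fold changes come from edgeR with TMM scaling, so the 2 scales need not give the same ratio. The reads come from the 3' ends of transcripts and are not divided by length. Keratinocyte markers were abundant in every library: the summed basal list (6 of 6 genes) had 11056 to 14981 CPM in benzamil, 14944 to 19344 CPM in DMSO and 10275 to 11901 CPM in untreated skin. None of 7 endothelial markers was among the joined genes.

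In the fit described below, 4 members were lower with benzamil than with DMSO. The promoters of these 4 genes are shown because they are the stretches of DNA where transcription of the genes that passed starts. The sequences are from RefSeq on GRCm38.p6, where 8 of 8 members matched, and each runs 5′ to 3′ on the gene's strand from 250 bases before to 50 bases after its start. Capitals mark matches to 5 motifs searched on both strands. The TATA box was searched as TATAAA. The GC box was searched as GGGCGG. The AP-1 motif was searched as TGANTCA, the STAT motif as TTCNNNGAA and the Grainyhead motif as AACNNGTT. The windows are chr14:57104653-57104952 (minus strand) for Gjb2, chr14:57133562-57133861 (minus) for Gjb6, chr10:56377050-56377349 (plus) for Gja1 and chr16:26371790-26372089 (minus) for Cldn1.
Gjb2: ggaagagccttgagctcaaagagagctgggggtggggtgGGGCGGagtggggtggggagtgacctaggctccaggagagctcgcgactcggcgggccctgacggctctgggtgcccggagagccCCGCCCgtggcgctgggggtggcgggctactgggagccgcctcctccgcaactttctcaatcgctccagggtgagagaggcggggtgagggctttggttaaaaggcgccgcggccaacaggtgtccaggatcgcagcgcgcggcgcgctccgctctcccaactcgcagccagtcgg
Gjb6: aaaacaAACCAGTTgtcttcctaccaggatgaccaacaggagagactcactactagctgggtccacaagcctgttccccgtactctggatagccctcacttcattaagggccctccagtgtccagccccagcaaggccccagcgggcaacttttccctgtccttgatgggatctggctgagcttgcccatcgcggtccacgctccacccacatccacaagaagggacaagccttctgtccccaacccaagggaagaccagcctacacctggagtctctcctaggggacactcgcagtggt
Gja1: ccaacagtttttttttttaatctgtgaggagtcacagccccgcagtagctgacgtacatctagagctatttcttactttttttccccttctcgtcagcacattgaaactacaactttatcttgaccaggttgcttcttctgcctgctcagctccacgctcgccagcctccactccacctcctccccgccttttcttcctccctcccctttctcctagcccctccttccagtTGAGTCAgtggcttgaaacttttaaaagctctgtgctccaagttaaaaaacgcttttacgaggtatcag
Cldn1: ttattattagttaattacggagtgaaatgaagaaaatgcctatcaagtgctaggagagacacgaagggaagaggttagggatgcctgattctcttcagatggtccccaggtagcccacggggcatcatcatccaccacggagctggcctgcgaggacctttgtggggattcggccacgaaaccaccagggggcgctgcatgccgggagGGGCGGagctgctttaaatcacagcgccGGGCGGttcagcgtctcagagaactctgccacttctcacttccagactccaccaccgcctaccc

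No motif of the 5 was shared by all 4 promoters. Gjb2 had GC boxes beginning 211 and 126 bases before its start, and Cldn1 had them 42 and 14 bases before its start. Gja1 had an AP-1 match 19 bases before its RefSeq start, which lies upstream of the GENCODE start given below, and Gjb6 had a Grainyhead match 244 bases before its start. Among all 32851 promoters of the same length, 35.7% held a GC box, 7.81% an AP-1 match and 4.20% a Grainyhead match. A TATA box was present in 13.6% of all promoters and a STAT match in 8.30%, and neither was found in these 4 windows. GC content was 70% for Gjb2, 57.3% for Gjb6, 47.7% for Gja1 and 56% for Cldn1, against a median of 52.7% over all promoters. Of the members that did not pass, Cldn4 had AP-1 matches at 240 and 158 bases and GC boxes at 44 and 5 bases before its start. A match is a description of the letters and not a measured binding site.

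In the genome, Gjb2 (chromosome 14, 57098600 to 57104702) and Gjb6 (57123303 to 57133611) lie 18.6 kb apart on the minus strand in mm10, by the GENCODE M21 annotation. Gjb5 is on chromosome 4 (127354809 to 127358181), Gja1 on chromosome 10 (56377330 to 56402513), Cldn1 on chromosome 16 (26356642 to 26371841) and Cldn4 on chromosome 5 (134945119 to 134946934). Ocln is on chromosome 13 (100496507 to 100552718) and Tjp1 on chromosome 7 (65296165 to 65527781). Tjp1 overlaps the annotated genes Gm44792, Gm44794 and Gm44795, and whether strand was used in counting is not given in the sources used here, so Tjp1 reads are less certain in origin.

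The first comparison asks what the channel blocker did to junction transcripts in imiquimod-treated skin. Gjb2, Gjb6, Gja1 and Cldn1 were lower with benzamil than with DMSO, whereas Cldn4, Tjp1 and Gjb5 did not pass the test. The connexins Gjb2 and Gjb6 had the lowest log2 fold changes among the tested members, and Gjb6 passed the filter on low counts only through DMSO, where it is high. Of the 7 tested members, 4 were lower and 0 higher by edgeR at an adjusted p under 0.05. The 4 include Gjb6, whose lower call was favoured by the filter. Over all 5245 tested genes, 12.1% were lower, 9.91% higher and 22.0% called in either direction. At an unadjusted p under 0.05, 4 members were lower and 1, Gjb5, was higher, against 18.4% lower and 16.9% higher over all tested genes. DESeq2 and limma each called 4 members lower and 0 higher. Of all called genes 45.0% were higher, and with total counts as the only scaling 19.7%, with the median log2 fold change of all genes at -0.26 in place of -0.01.

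Among the connexins, Gjb2 had 63.9, 76.6, 24.1 and 130.0 CPM in benzamil libraries 1 to 4, against 672, 729, 355 and 300.3 CPM in DMSO libraries 1 to 4. The groups did not overlap, and within DMSO the first 2 libraries were about 2 times the others. The mean was 73.7 ± 43.7 CPM in benzamil and 514 ± 218 CPM in DMSO (SD, n = 4 each), from 71 and 1090 reads. The fitted log2 fold change was -2.66 ± 0.32 (SE), or 6.32-fold lower with benzamil, with an edgeR adjusted p of 3.23e-06. Leaving out each library in turn gave -2.91 to -2.45.

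Gjb6, the neighbour of Gjb2, had 16.0, 22.3, 14.5 and 21.7 CPM in benzamil libraries, against 88.7, 99.8, 88.7 and 45.3 CPM in DMSO libraries. The groups did not overlap, and the lowest DMSO library was about 2 times the highest benzamil library. The log2 fold change was -1.89 ± 0.38 (SE) with an edgeR adjusted p of 0.00103, from 19 reads in benzamil and 158 in DMSO. Gjb6 reached the filter level of 34.9 CPM in 4 of 4 DMSO libraries, 0 of 4 benzamil libraries and 1 untreated library, so it was tested only because DMSO was high.

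Gja1 had 176, 275, 149.5 and 173 CPM in benzamil libraries, against 543, 543, 517 and 587 CPM in DMSO libraries. DMSO libraries were close to each other, and every benzamil library lay below all of them. The mean was 193 ± 55.4 CPM in benzamil and 547 ± 28.9 CPM in DMSO (SD, n = 4 each), and the log2 fold change was -1.24 ± 0.19 (SE; edgeR adjusted p = 7.9e-05). In bulk skin, fewer cells of a type and less RNA per cell cannot be told apart.

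Gjb5, which encodes connexin 31.1, had 29.3, 54.3, 77.2 and 50.6 CPM in benzamil libraries, against 26.7, 30.5, 38.6 and 34.0 CPM in DMSO libraries. The groups overlapped at benzamil library 1, with the other 3 above all DMSO libraries. The log2 fold change of 0.94 ± 0.38 (SE) had an edgeR adjusted p of 0.0786. It also missed the threshold without benzamil library 3 (0.61, adjusted p = 0.326) or DMSO library 1 (0.81, adjusted p = 0.215). With total counts alone it was 0.67 (adjusted p = 0.199). It passed when only the 2 groups were fitted (0.96, adjusted p = 0.0376) and without benzamil library 1 (1.23, adjusted p = 0.0383). It also passed without untreated library 1 (adjusted p = 0.0447) or 2 (adjusted p = 0.0493).

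Among the tight junction genes, Cldn1, a claudin whose loss is lethal to newborn mice through water loss across the skin, had 104, 121, 33.8 and 36.1 CPM in benzamil libraries. It had 183, 175, 239 and 196 CPM in DMSO libraries. The groups did not overlap, and benzamil libraries 3 and 4 lay far below benzamil libraries 1 and 2. The log2 fold change was -1.03 ± 0.28 (SE; edgeR adjusted p = 0.00927). Without benzamil libraries 3 and 4, which are also the shallowest of that group, it was -0.59 with an adjusted p of 0.166. The call was lost without both, where lower calls over all genes also fell, from 635 to 300. It was kept without library 3 alone (-0.89, adjusted p = 0.0386) or library 4 alone (-0.86, adjusted p = 0.0294).

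The remaining tight junction members did not pass. Cldn4, a claudin of barrier epithelia, had 40.0, 47.9, 14.5 and 0 CPM in benzamil libraries, against 54.5, 27.7, 34.7 and 22.7 CPM in DMSO libraries. The groups overlapped, and the log2 fold change was -0.07 ± 0.43 (SE; edgeR adjusted p = 0.927). Tjp1 had 37.3, 60.6, 43.4 and 50.6 CPM in benzamil libraries, against 74.8, 55.4, 65.6 and 82.2 CPM in DMSO libraries. Its groups overlapped at benzamil library 2, and the log2 fold change was -0.32 ± 0.30 (SE; adjusted p = 0.470). Ocln had 9.65 to 19.2 CPM in benzamil libraries and 7.71 to 22.2 CPM in DMSO libraries, from 15 and 32 reads. With no filter on low counts its log2 fold change was -0.01 ± 0.51 (SE; adjusted p = 0.996).

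**Figure D1:**
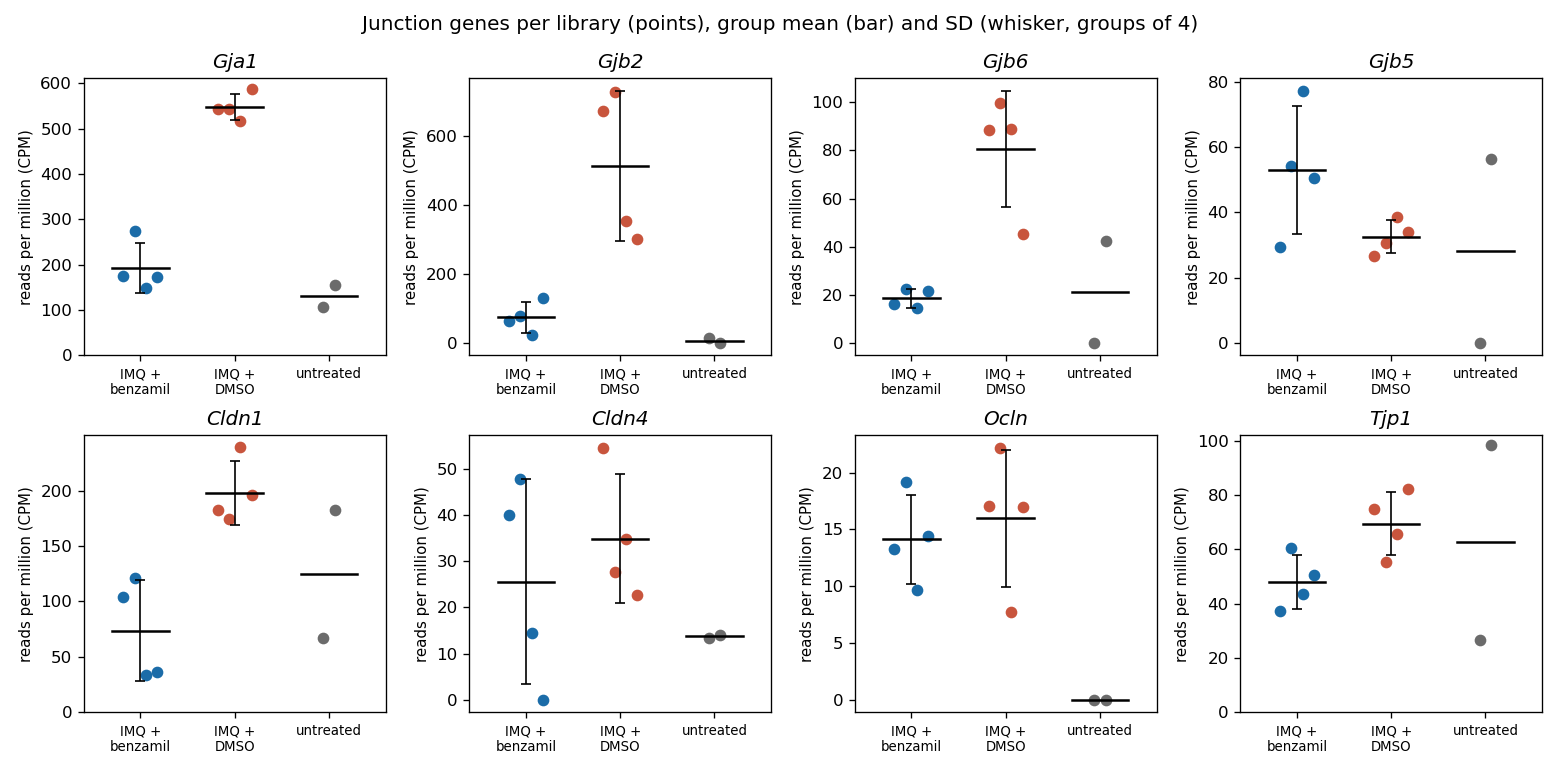
CPM (linear axis that differs between panels) of the 8 junction genes in imiquimod (IMQ) with benzamil, imiquimod with DMSO and untreated libraries. Points are libraries, bars are group means and whiskers are SD for the groups of 4. For Gjb2, Gjb6, Gja1 and Cldn1 every benzamil point lies below every DMSO point, whereas Gjb5, Cldn4, Ocln and Tjp1 overlap. The share of all genes without such overlap is not given here.

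The second comparison sets imiquimod-treated skin with DMSO against untreated skin. Gjb2 and Gja1 were higher with DMSO and imiquimod, Gjb6 did not pass, and the tight junction members did not pass. Of the 7 tested members, 2 were higher and 0 lower by edgeR, against 9.93% higher, 8.45% lower and 18.4% in either direction among all 5245 tested genes. At an unadjusted p under 0.05, 3 were higher and 0 lower, against 18.9% higher and 14.4% lower over all tested genes, and DESeq2 and limma each called 2 higher and 0 lower. The untreated libraries held few reads of each member, which limits the precision of every value here.

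Gjb2 had 300.3 to 729 CPM over the 4 DMSO libraries, against 13.4 and 0 CPM in the untreated libraries, which held 1 read of it in total. The ratio of read rates was 83.2, with an exact Poisson interval of 14.9 to 3291 that covers counting error only. The fitted log2 fold change of 6.08 ± 0.87 (SE; edgeR adjusted p = 2.58e-05) therefore rests on that 1 untreated read, and leaving out each library gave 5.29 to 10.37. Gja1 had 517 to 587 CPM in DMSO libraries, against 107 and 155 CPM in untreated libraries. The groups did not overlap, and the log2 fold change was 1.98 ± 0.33 (SE; edgeR adjusted p = 0.000164).

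Gjb6 had 45.3 to 99.8 CPM in DMSO libraries, against 0 and 42.2 CPM in untreated libraries. Every DMSO library lay above both untreated libraries, but the untreated group rests on 3 reads from 1 library. The ratio of read rates was 4.02, with an exact Poisson interval of 1.35 to 19.7, and the edgeR log2 fold change was 1.87 ± 0.76 (SE; adjusted p = 0.0826). It passed without DMSO library 4 (2.05, adjusted p = 0.0473) and without untreated library 2 (adjusted p = 0.0236).

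Cldn1 had 175 to 239 CPM in DMSO libraries, against 67.0 and 183 CPM in untreated libraries, and Tjp1 had 55.4 to 82.2 CPM against 26.8 and 98.4 CPM. For both genes the groups overlapped, with log2 fold changes of 0.57 ± 0.45 for Cldn1 (SE; edgeR adjusted p = 0.388) and 0.10 ± 0.53 for Tjp1 (adjusted p = 0.918). Cldn4 had 78 reads in DMSO libraries and 2 in untreated libraries, a ratio of read rates of 2.98 with an exact Poisson interval of 0.797 to 25.03. Gjb5 had 26.7 to 38.6 CPM in DMSO libraries, against 0 and 56.2 CPM in untreated libraries, with a log2 fold change of 0.09 ± 0.87 (SE; edgeR adjusted p = 0.952). Ocln had 0 reads in both untreated libraries, which allows up to 20.6 CPM over the group at 3 reads. Its DMSO mean of 16.0 ± 6.0 CPM (SD, n = 4) lies under that limit, so no fold is given.

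The third comparison sets imiquimod with benzamil against untreated skin. Of the 7 tested members, 0 passed in either direction by edgeR, against 2.44% higher, 1.56% lower and 4.00% in either direction among all tested genes. At an unadjusted p under 0.05, 2 members were higher, Gjb2 and Gja1, against 11.7% of all tested genes. DESeq2 also called 0 members. Of all called genes 61.0% were higher, and 37.5% with total counts as the only scaling. Gja1 had 149.5 to 275 CPM in benzamil libraries, against 107 and 155 CPM in untreated libraries, with a log2 fold change of 0.74 ± 0.35 (SE; edgeR adjusted p = 0.254). Gjb2 had 24.1 to 130.0 CPM in benzamil libraries, against 13.4 and 0 CPM in untreated libraries. Its ratio of read rates was 10.0, with an exact Poisson interval of 1.74 to 401, and the edgeR adjusted p was 0.106. The edgeR log2 fold changes of the other tested members were -0.46 ± 0.49 for Cldn1, -0.22 ± 0.56 for Tjp1, 1.03 ± 0.81 for Gjb5 and -0.01 ± 0.96 for Gjb6 (SE). Cldn4 had 33 reads in benzamil libraries and 2 in untreated libraries, a ratio of read rates of 2.32 with an exact Poisson interval of 0.595 to 19.997. A p that misses the threshold does not show that these groups were alike.

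Markers of other cells and of epidermal state were summed in the same libraries. The hyperplasia list (Krt6a, Krt6b, Krt16, Krt17, Mki67 and Top2a, 6 of 6 in the tables) summed to 1158 to 5540 CPM in benzamil, 6333 to 11878 CPM in DMSO, and 469 and 633 CPM in untreated libraries. The suprabasal keratinocyte list (7 of 7) summed to 37233 to 48852 CPM in benzamil, 14633 to 30795 CPM in DMSO and 12866 to 16403 CPM in untreated libraries. The neutrophil list (4 of 7 in the tables) summed to 154 to 3864 CPM in benzamil, 11564 to 18798 CPM in DMSO and 42.2 to 214 CPM in untreated libraries, and its S100a8 and S100a9 are also made by keratinocytes. The fibroblast list (6 of 6) summed to 318 to 1170 CPM in benzamil, 399 to 860 CPM in DMSO, and 5749 and 14180 CPM in untreated libraries. The sebaceous gland list (6 of 6) summed to 4387 to 7715 CPM in benzamil, 1846 to 3499 CPM in DMSO and 5932 to 8953 CPM in untreated libraries, and 5 of its 6 genes were higher in benzamil over DMSO. The skeletal muscle list (6 of 6) summed to 386 to 1063 CPM in benzamil, 133 to 833 CPM in DMSO and 1827 to 2104 CPM in untreated libraries. Of its 6 genes, 5 were higher in benzamil over DMSO and 5 lower in DMSO over untreated. In benzamil over DMSO, 3 of 6 basal and 3 of 7 suprabasal keratinocyte genes were higher and 0 lower. Of the hyperplasia genes, 3 of 6 were lower and 0 higher. Of the tested neutrophil genes 3 of 3 were lower, and of 4 tested fibroblast genes 0 were called. Over all tested genes 9.91% were higher and 12.1% lower, and 8.45% were lower in DMSO over untreated. The part of these differences in the junction results was not tested.

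The wider list of tight junction genes, with 43 strand, receptor and plaque genes, was described in the same fit. Of these, 30 were in both tables and 19, with the member Tjp1 among them, were tested. Of 46 listed claudins, 4 were in both tables, and the 2 tested were the members Cldn1 and Cldn4.

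Of the 19 tested tight junction genes in the plaque, strand and receptor list, 4 were lower with benzamil than with DMSO and 0 were higher by edgeR, whereas 1 was higher and 5 lower at an unadjusted p under 0.05. Over all tested genes 12.1% were lower and 9.91% higher, and 18.4% and 16.9% at the unadjusted threshold. The share called in either direction in the list, 4 of 19, was near the 22.0% of all genes. By adjusted p, the clearest was Vapa, which encodes a membrane protein of the endoplasmic reticulum that binds occludin. It had 57.8 to 134 CPM in benzamil libraries and 218 to 280.0 CPM in DMSO libraries, with no overlap and a log2 fold change of -1.17 ± 0.23 (SE; edgeR adjusted p = 0.000726). Cxadr, a junctional adhesion receptor, had 53.1 to 131 CPM in benzamil libraries and 153 to 244 CPM in DMSO libraries (log2 fold change -0.67 ± 0.23, adjusted p = 0.0423). Prkci, an atypical protein kinase C of cell polarity, and Amotl2, an angiomotin relative at junctions, were lower too, with log2 fold changes of -1.11 ± 0.38 (adjusted p = 0.0371) and -1.26 ± 0.42 (adjusted p = 0.0311). Both reached the filter level only in DMSO and 1 untreated library at most. They were tested because DMSO was high, so the filter favoured a lower call. Cxadr, Prkci and Amotl2 lost the call in 8, 8 and 6 of 20 alternatives. Among the 20, the benzamil table alone and the fit of only the 2 groups gave the same values.

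In DMSO over untreated, Vapa (1.96 ± 0.44, edgeR adjusted p = 0.00302) and Cxadr (1.62 ± 0.46, adjusted p = 0.0161) were higher on the log2 scale, and 3 of the 19 were lower. Over all tested genes 9.93% were higher and 8.45% lower. Without untreated library 1 Vapa had an adjusted p of 0.0729, and Cxadr lost the call without either untreated library. The lower ones were Cgnl1, Pard3b and Pals1, which encode proteins of the junction plaque or cell polarity. Cgnl1 had 12 reads in DMSO libraries and 8 in untreated libraries, and Pard3b had 14 and 9. Both reached the filter level only in the untreated libraries, where they were high, and were tested for that reason. Cgnl1 lost the call without untreated library 1 (adjusted p = 0.214) or 2 (adjusted p = 0.0688), and Pard3b without untreated library 1 (adjusted p = 0.214). Pals1 had an edgeR adjusted p of 0.0476 and lost the call in 12 of 19 alternatives. In benzamil over untreated, no gene of the tight junction list passed by edgeR, whereas 0 were higher and 2 were lower at an unadjusted p under 0.05. Over all tested genes 4.00% passed in either direction, and 18.9% had an unadjusted p under 0.05.

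**Figure D2:**
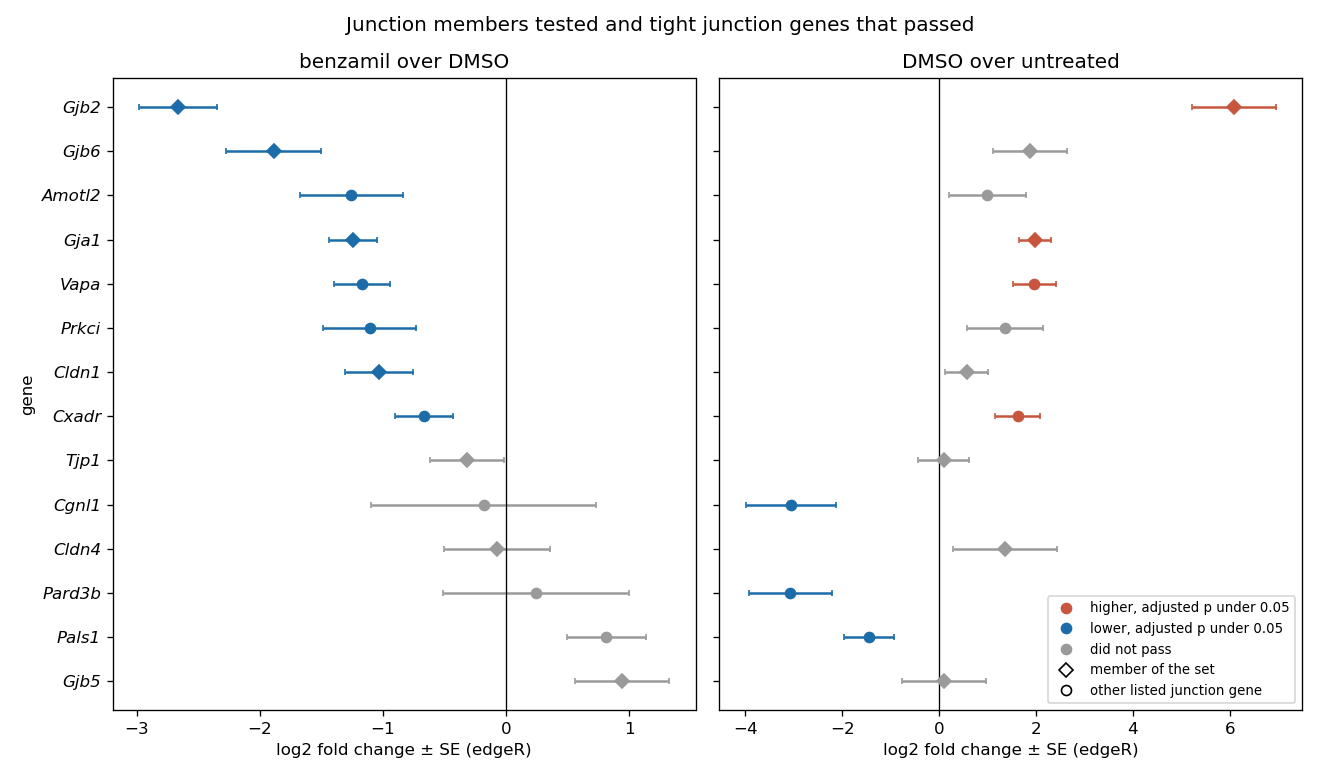
Log2 fold change with SE from edgeR for the 7 tested members and the tight junction genes that passed in either comparison, in benzamil over DMSO (left) and DMSO over untreated (right), on axes of different range. Diamonds are the members, circles are other listed genes, blue marks lower and red higher at an adjusted p under 0.05. Gjb2 lies at -2.66 on the left and 6.08 on the right, and Gjb5 lies at 0.94 on the left without passing.

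The make-up of the connexin members was described by the share of each in their summed reads (Gja1, Gjb2, Gjb5 and Gjb6), a measure that does not depend on how libraries are scaled against each other. It was chosen after seeing the data and was given no test. Gjb2 and Gjb6 together took 28.0, 23.1, 14.5 and 40.4% of these reads in benzamil libraries, against 57.2, 59.1, 44.4 and 35.8% in DMSO libraries and 11.1 and 16.7% in untreated libraries. Benzamil and DMSO overlapped, since benzamil library 4 lay above DMSO library 4. Gjb5 took 10.3, 12.7, 29.1 and 13.5% in benzamil libraries, against 2.01, 2.17, 3.86 and 3.52% in DMSO libraries and 0 and 22.2% in untreated libraries. For the Gjb5 share every benzamil library lay above every DMSO library. A share also rises when reads of the other connexins in the sum fall, and the CPM of Gjb5 overlapped between benzamil and DMSO.

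Gja1 took 61.7, 64.2, 56.4 and 46.2% of these reads in benzamil libraries, against 40.8, 38.7, 51.7 and 60.7% in DMSO libraries and 88.9 and 61.1% in untreated libraries. Its ranges overlapped between benzamil and DMSO. The totals behind these shares were 52 to 134 reads in benzamil libraries, 259 to 1245 in DMSO libraries, and 9 and 18 in untreated libraries. The exact binomial 95% interval for the share of Gjb2 and Gjb6 in untreated library 2 was 3.58 to 41.4%, which covers counting error only.

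**Figure D3:**
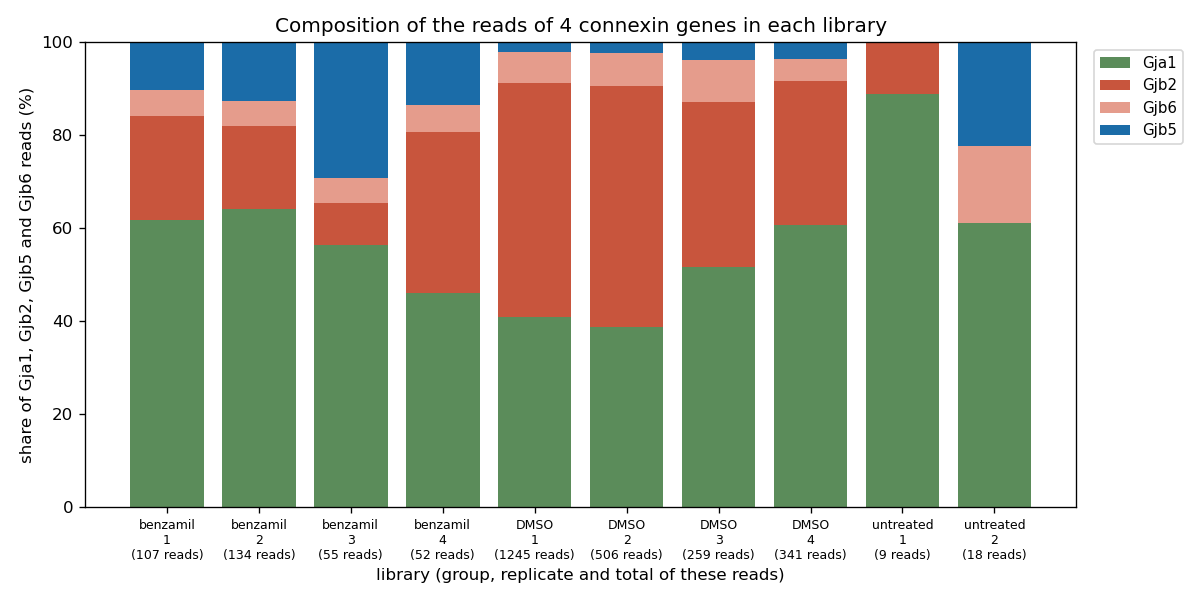
Stacked bars of the percent of Gja1, Gjb2, Gjb6 and Gjb5 in the summed reads of these 4 genes, for each benzamil, DMSO and untreated library, with the summed reads under each bar. The share of Gjb5 is 10.3 to 29.1% in benzamil and 2.01 to 3.86% in DMSO. That of Gjb2 with Gjb6 is 14.5 to 40.4% in benzamil and 35.8 to 59.1% in DMSO. The share of a gene also changes when the other genes in the sum change.

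Ratios between members within a library also do not depend on library scaling. Gjb2 over Gja1 was 0.364, 0.279, 0.161 and 0.75 in benzamil libraries, against 1.24, 1.34, 0.687 and 0.512 in DMSO libraries. The highest benzamil library lay above 2 DMSO libraries. The mean log2 ratio was -1.59 ± 0.92 in benzamil and -0.19 ± 0.67 in DMSO (SD, n = 4 each), and the difference of -1.39 had a 2-sided exact permutation p of 0.0857 (adjusted over 2 ratios, 0.0857). With 4 against 4 libraries the smallest p this test allows is 0.0286.

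Gjb2 over Gjb6 was 4.00, 3.43, 1.67 and 6.00 in benzamil libraries, against 7.58, 7.31, 4.00 and 6.63 in DMSO libraries. The benzamil ratios rest on 6, 7, 3 and 3 reads of Gjb6 and carry a large counting error. The groups overlapped at a ratio of 4.00 to 6.00. The mean log2 ratio was 1.77 ± 0.77 in benzamil and 2.63 ± 0.43 in DMSO, a difference of -0.85 with a 2-sided exact permutation p of 0.0857 (n = 4 each; adjusted p = 0.0857). Cldn4 over Cldn1 was 0.385, 0.395, 0.429 and 0 in benzamil libraries, against 0.298, 0.159, 0.145 and 0.116 in DMSO libraries. It had no test because benzamil library 4 had no Cldn4 read, and benzamil library 3 had 3 reads of Cldn4 and 7 of Cldn1.

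**Figure D4:**
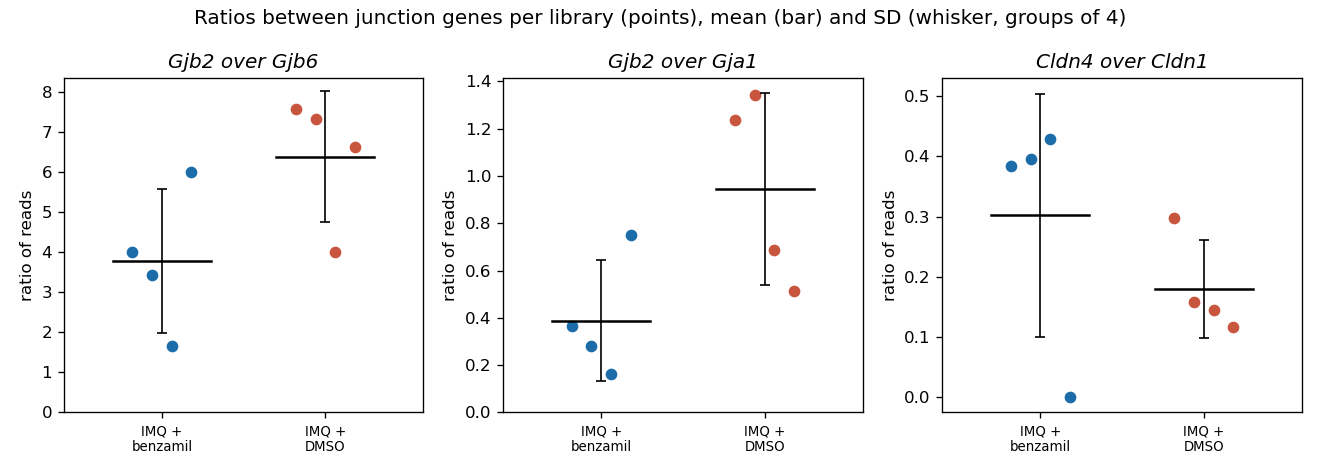
Ratio of reads of 2 junction genes in each library (points, linear axes) with the group mean (bar) and SD (whisker, n = 4), for benzamil and DMSO. The benzamil means lie below the DMSO means for Gjb2 over Gjb6 and Gjb2 over Gja1, with overlap in both, and Cldn4 over Cldn1 is higher in 3 of 4 benzamil libraries.

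Other genes with the most similar pattern were sought by Pearson's r of log2 CPM over the 10 libraries among 2321 genes, as a description with no test. The libraries share their groups and depths, so r also reflects these. The 3 genes nearest to Gjb2 were Krt6b (r = 0.988), Stfa1 (0.980) and Sprr2d (0.972). Krt6b, a keratin of hyperproliferative epidermis, had 186, 259, 48.2 and 412 CPM in benzamil libraries, against 3530, 3538, 1986 and 980.4 CPM in DMSO libraries and 26.8 and 14.1 CPM in untreated libraries. Within benzamil, Krt6b and Gjb2 were both lowest in library 3 and highest in library 4, and within DMSO both were lowest in library 4.

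The nearest genes to Gja1 were Slc7a11 (r = 0.958), Vapa (0.957) and Rab31 (0.956), and to Gjb6 they were Naa50 (0.966), Ndufv2 (0.958) and Dusp7 (0.957). For Gjb5 Zmat2 (0.945) and Myof (0.936) were the nearest. For Cldn1 they were mt-Cytb (0.963), Rpl32 (0.958) and Emp1 (0.944), for Cldn4 Iws1 (0.906), Rtn4 (0.877) and Nfatc3 (0.873), and for Tjp1 Dusp22 (0.905), Efna5 (0.897) and Tbl1xr1 (0.885). Among members, r was 0.868 for Gja1 with Gjb2, 0.840 for Gja1 with Gjb6, 0.648 for Gjb2 with Gjb6 and 0.016 for Gjb2 with Gjb5.

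The authors' deposited table gives its own fold changes for benzamil minus DMSO, of -2.24 ± 0.30 for Gjb2, -1.47 ± 0.34 for Gjb6, -1.19 ± 0.19 for Gja1 and -0.96 ± 0.27 for Cldn1 (log2, SE). The adjusted p-values in the authors' deposited table are 1.02e-10, 0.00113, 1.92e-07 and 0.00848 in that order. For Gjb5 the authors' deposited table gives 0.75 ± 0.33 with an adjusted p of 0.131. Their other table is coded untreated minus DMSO, and in the authors' deposited table Gjb2 has -4.25 ± 0.67 (adjusted p = 0.00115) and Gja1 has -1.97 ± 0.36 (adjusted p = 1.14e-05).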

How the data were processed

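RNA of 10 skin libraries was made, per the labels' protocols, from 500 ng of RNA with a 3' mRNA kit carrying unique molecular identifiers and a 150-cycle sequencing kit. STAR, featureCounts, DESeq2 and mm10 are named in the submitters' processing notes, and for their versions, the use of strand and the collapse of identifiers the sources used here give nothing. The authors deposited 2 tables of log2 values, variance-stabilised and normalized separately. They also deposited result tables with a mean signal, log2 fold changes, a Wald score and p-values with adjusted p-values. A deposited table of counts carries human identifiers and entered no comparison.

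The log2 values were turned back into reads by inverting the transform. All values came out whole within 0.001 reads, and 39116 of 39116 DMSO values were equal in both tables. The planned count test was kept and run on these reads. The join kept 9779 genes and dropped 874 found only with benzamil and 41 found only with untreated libraries. edgeR 4.0.16 (R 4.3.3) fitted all 10 libraries with a mean per group, TMM scaling, filterByExpr (10 reads at the typical depth, 15 in total) and its quasi-likelihood test. P-values of 5245 genes were adjusted by Benjamini-Hochberg, with a threshold of 0.05. The SE was derived from the F statistic and is approximate. The inversion and the tests were tested on simulated data. Intervals cover counting error only.

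Named genes were the 8 members, every listed junction gene that passed in any comparison, and the 3 genes with at least 200 reads most similar to each tested member. Some listed or similar genes are not reported here, so the wider connexin list is not described. The members and lists were chosen with earlier results of these data known. Alternatives comprised DESeq2 1.42.0, limma 3.58.1 on the deposited log2 values, other scalings and filters, and leaving out libraries.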

Additional observations from a re-analysis of the deposited data

Results flagged for a closer look

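The table of counts with human identifiers was not used in any comparison, although the samples are labelled as mouse. It holds 61533 human identifiers and 0 mouse identifiers. GJA1 had 28 counts in the benzamil libraries together, 246 counts in the DMSO libraries together and 0 counts in the untreated libraries. The table totals were 119375, 270713 and 19146 counts for benzamil, DMSO and untreated libraries, so that GJA1 made up 0.0235% of benzamil counts and 0.0909% of DMSO counts, and 0 of 19146 untreated counts allows up to 0.0157%. These values stood out as a signal above the untreated libraries in data that no comparison used. CLDN1 had 51, 129 and 8 counts in benzamil, DMSO and untreated libraries, which are close shares of 0.0427, 0.0477 and 0.0418%. GJB2 had 11, 39 and 0 counts, and its share of 0.0144% in DMSO lies below the untreated limit of 0.0157%. Which reads gave these counts was not tested. No library stood apart by Dixon's test in any of the 16 groups of 4 examined, where chance alone gives about 1 in 20.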

How the results depend on the processing

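Over the tested members, 372 of the alternative values kept their direction and side of the threshold, 7 passed where the reported value had not, 1 no longer passed (Cldn1) and 16 changed sign. None of those 16 values passed the test. In benzamil over DMSO the benzamil table alone and only the 2 groups gave the same values. These counts hold that fit under both names. In benzamil over DMSO, total counts alone gave 248 higher and 1009 lower genes, against 520 and 635, and moved the median of all genes from -0.01 to -0.26, with the higher share of calls at 19.7%, against 45.0%. Without benzamil libraries 3 and 4 there were 284 and 300, and leaving out each library gave 291 to 632 higher and 356 to 799 lower. In DMSO over untreated, DESeq2 gave 329 and limma 1029 higher genes, against 521, and leaving out each library gave 225 to 532 higher and 208 to 448 lower. In benzamil over untreated, the 128 higher genes became 81 with DESeq2, 200 with no filter, 77 with only the 2 groups, 84 with the replicate block and 63 with total counts alone (37.5% higher, against 61.0%). The 82 lower genes became 125 with DESeq2 and 43 without benzamil libraries 3 and 4, and leaving out each library gave 63 to 141 higher and 36 to 92 lower. The cause was not tested.

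Members called higher in benzamil over DMSO were 1 (Gjb5) with the benzamil table alone or only the 2 groups, and 0 to 1 leaving out each library. In DMSO over untreated they were 2 to 3. Cldn4 in benzamil over DMSO was 0.40 on the log2 scale without benzamil libraries 3 and 4 and -0.37 to 0.35 leaving out each library. Leaving out each library in DMSO over untreated gave -0.87 to 6.33 for Gjb5, -0.51 to 1.44 for Tjp1, 5.29 to 10.37 for Gjb2, 0.91 to 7.70 for Gjb6 and 0.07 to 1.60 for Cldn1. In benzamil over untreated it gave -0.95 to 0.56 for Cldn1, -0.97 to 5.80 for Gjb6, -0.83 to 1.10 for Tjp1, 2.61 to 7.70 for Gjb2 and 0.07 to 7.25 for Gjb5. The ends of the ranges in these comparisons with untreated libraries came from leaving out 1 of the 2 untreated libraries. Gjb6 in benzamil over untreated was 0.18 with no filter and 0.0040 without ribosomal RNA genes. The benzamil minus DMSO difference in log2 ratio was -1.78 to -1.04 for Gjb2 over Gja1 and -1.12 to -0.51 for Gjb2 over Gjb6, leaving out each library.

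Replicate numbers gave no sign of pairing, since same-numbered benzamil and DMSO libraries had deviations correlated at 0.069, 0.00069, 0.041 and 0.068. Pairs with untreated libraries had -0.12 and -0.014 for DMSO and -0.11 and 0.12 for benzamil. In libraries this shallow counting error lowers r, so these values cannot exclude pairing. With the replicate block there were 465 higher and 594 lower genes in benzamil over DMSO and 545 and 418 in DMSO over untreated. With the replicate block Gjb5 was -0.055 in DMSO over untreated and Gjb6 0.12 in benzamil over untreated. Depth limits most values with untreated libraries, where members had 0 to 19 reads.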
